A study of Arabidopsis thaliana with 12 samples.

Results

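Alpha-expansins were followed through the response of dark-grown Arabidopsis thaliana seedlings to red light. The genes were taken by locus from the deposited gene count table, which gave EXPA1, EXPA2, EXPA3, EXPA4, EXPA5, EXPA6, EXPA8, EXPA10, EXPA11 and EXPA15, 10 of its 33655 genes, all with enough reads to be tested. Whole seedlings of 2 genotypes were used, the double mutant b''ab''b and the wild type Col-0. The name of the mutant refers to B''α and B''β, which are regulatory subunits in PP2A phosphatase complexes. All seeds had 3 days of cold and then 3 h of white light (25 µmol per square metre per second) at 22 °C, and all seedlings grew for 4 days in darkness. They were then given red light without a break for 1 h (8 µmol per square metre per second) or left in darkness. This made 4 groups of 3 libraries: b''ab''b in red light, b''ab''b in the dark, Col-0 in red light and Col-0 in the dark. The study asked how red light changes transcripts in each genotype. The sources used here do not give the mutant alleles. They do not say either whether replicates of a group came from separate cultures, so that p-values reflect only how much these samples varied, which may be technical.

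Expansins are small secreted proteins that loosen the plant cell wall without cutting its polymers. They let the cellulose and hemicellulose network slip when the wall is acidified, which in the acid growth view follows when the plasma membrane proton pump is active. In an etiolated seedling the hypocotyl elongates fast while cotyledons and hook stay closed. Red light, sensed by phytochromes, slows the hypocotyl and starts cotyledon expansion, so wall loosening is regulated in opposite directions in different organs. Whole seedlings pool these organs, and in such a pool a change in RNA per cell and a change in the number of cells of one type cannot be told apart.

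The libraries held 2874429 to 4979055 counts, made from 3′ tags, so that reads stem from the 3′ ends of transcripts. Levels are given as CPM, read counts scaled to the TMM-adjusted library size. Since 1 transcript gives 1 tagged end, CPM was not divided by transcript length, and levels of different genes are set side by side on that scale. B''α transcripts stood at 3.88 to 6.29 CPM in mutant libraries and 24.4 to 31.2 CPM in wild type libraries, while B''β had 3 to 9 counts in mutant libraries and 8 to 20 in wild type libraries. The 3 markers of the etiolated state, PORA, PORB and PHYA, all fell in red light in both genotypes (edgeR adjusted p up to 5.66e-06). On the second principal component, which held 9.92% of the variance, 2 dark libraries stood apart from the other dark ones. They were mutant replicate 3 (score −25.0) and wild type replicate 1 (score −27.5). These 2 also held the most counts of all libraries, 4773926 and 4979055, and a part of depth was not tested. Results that rest on them are given with and without them.

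Before the values, the upstream sequences of 3 genes are shown: EXPA1 and EXPA10, which had the largest changes in red light, and EXPA11, which changed in the opposite direction. Each is the 250 bases before the annotated gene start in TAIR10.1 (RefSeq annotation), read 5′ to 3′ on the gene's strand, with capitals for every match to the 6 motifs searched on both strands. EXPA1 lies at chr1:26141726-26143538 on the plus strand and its window at chr1:26141476-26141725. EXPA10 lies at chr1:9259432-9261313 on the plus strand, with the window chr1:9259182-9259431. EXPA11 lies at chr1:6998335-6999839 on the minus strand, with the window chr1:6999840-7000089.
EXPA1: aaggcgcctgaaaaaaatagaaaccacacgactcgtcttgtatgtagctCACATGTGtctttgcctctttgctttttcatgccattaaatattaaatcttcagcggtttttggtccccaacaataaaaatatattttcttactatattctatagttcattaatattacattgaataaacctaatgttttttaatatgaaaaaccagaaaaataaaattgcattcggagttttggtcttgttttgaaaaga
EXPA10: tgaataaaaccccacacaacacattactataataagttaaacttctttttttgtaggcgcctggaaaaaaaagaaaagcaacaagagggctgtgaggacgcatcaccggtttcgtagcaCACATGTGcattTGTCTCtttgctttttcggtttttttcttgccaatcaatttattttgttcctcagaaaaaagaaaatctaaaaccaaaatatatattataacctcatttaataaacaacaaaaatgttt
EXPA11: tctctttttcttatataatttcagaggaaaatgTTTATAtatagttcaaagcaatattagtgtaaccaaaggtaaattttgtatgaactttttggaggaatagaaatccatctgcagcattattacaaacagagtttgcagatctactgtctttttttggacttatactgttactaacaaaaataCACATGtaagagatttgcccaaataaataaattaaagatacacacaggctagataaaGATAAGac

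The motif CACATG, a form of E-box that phytochrome-interacting factors (PIFs) can bind, occurred in 4 of the 10 windows, those of EXPA1, EXPA2, EXPA10 and EXPA11, and in 11.1% of the 27443 upstream windows of the same length in the genome. In EXPA1 and in EXPA10 it lay on both strands, as the palindrome CACATGTG. The palindrome, noticed only after these sequences were read, started 201 bases before the start of EXPA1 and 131 bases before that of EXPA10, and was present in 0.375% of all windows. Both windows also carried the 14-base run ctctttgctttttc, which began 15 bases after the first letter of the palindrome in each and was the longest run that any of the 45 pairs of windows shared. The G-box CACGTG, to which PIFs and HY5 bind, was in none of the 10 windows against 6.49% of all windows, and the element TGACGT was also in none against 7.69%. The auxin response element TGTCTC was in the windows of EXPA5, EXPA6 and EXPA10 against 10.9% of all windows, and in EXPA10 it overlapped the first letters of the shared run. The I-box core GATAAG was in that of EXPA11 alone against 12.3%, and the TATA box TATAAA in 5 windows against 47.3%. A match describes letters and not a binding site. EXPA1, EXPA10, EXPA11 and EXPA3 each have 2 annotated start sites, 110, 318, 316 and 534 bases apart, so their windows hold for the outermost start only.

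**Figure D1:**
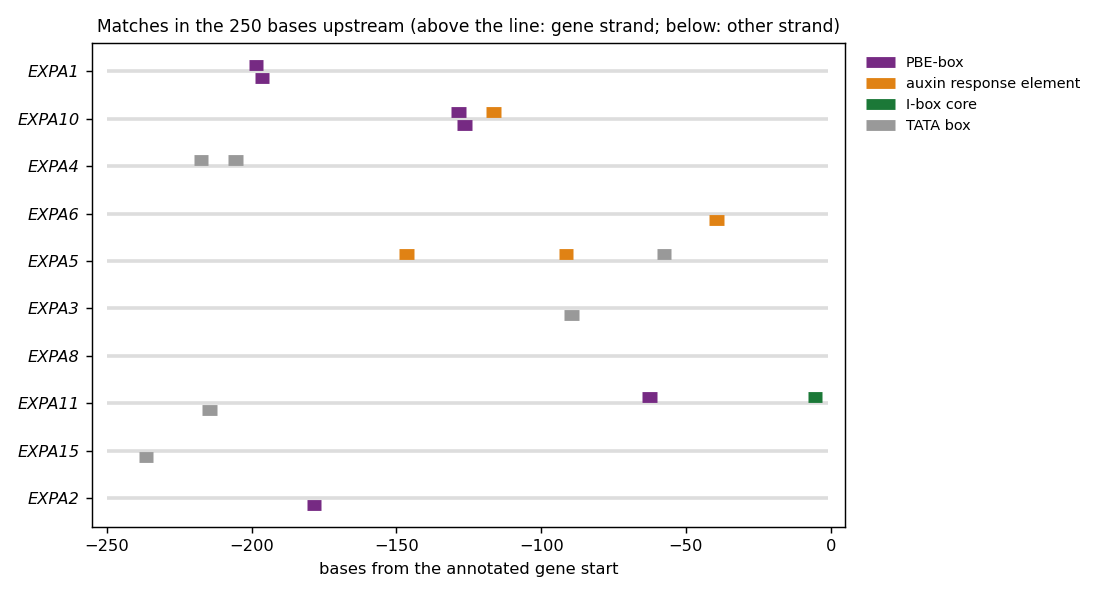
Positions of motif matches in the 250 bases upstream of each of the 10 genes, with distance from the annotated gene start in bases on the x axis, 1 line per gene and boxes above the line for the gene strand and below it for the other strand. CACATG (PBE-box) is matched on both strands in EXPA1 and EXPA10, and EXPA8 has no match to any motif searched.

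The strongest response was that of EXPA1 (AT1G69530), whose protein is known for its part in guard cell walls and stomatal opening and for a role in roots. In mutant seedlings EXPA1 stood at 149, 155 and 145 CPM in the 3 red light libraries, against 35.9, 38.0 and 32.8 CPM in the 3 dark ones. In the wild type it stood at 158, 163 and 149.9 CPM in red light, against 39.5, 35.3 and 34.1 CPM in the dark. Every red light library was far above every dark library, and the libraries of one light condition lay close together whatever their genotype. EXPA1 rose 4.21-fold in the mutant (2.07 ± 0.09 on the log2 scale, as estimate ± SE with n = 3 libraries per group, edgeR adjusted p = 3.05e-14) and 4.28-fold in the wild type (2.10 ± 0.09, edgeR adjusted p = 2.62e-14).

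EXPA10 (AT1G26770), which is known for a role in leaf growth and at the base of the pedicel, had the next largest change. It stood at 40.8, 44.6 and 38.9 CPM in mutant red light libraries, against 15.9, 15.1 and 18.0 CPM in mutant dark libraries. Wild type libraries had 43.4, 53.9 and 39.8 CPM in red light, against 17.1, 18.5 and 18.5 CPM in the dark. The groups did not overlap, although wild type replicate 2 in red light was higher than the other red light libraries. EXPA10 rose 2.52-fold in the mutant (log2 1.33 ± 0.14, n = 3 per group, edgeR adjusted p = 6.93e-08) and 2.53-fold in the wild type (1.34 ± 0.13, edgeR adjusted p = 4.80e-08).

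**Figure D2:**
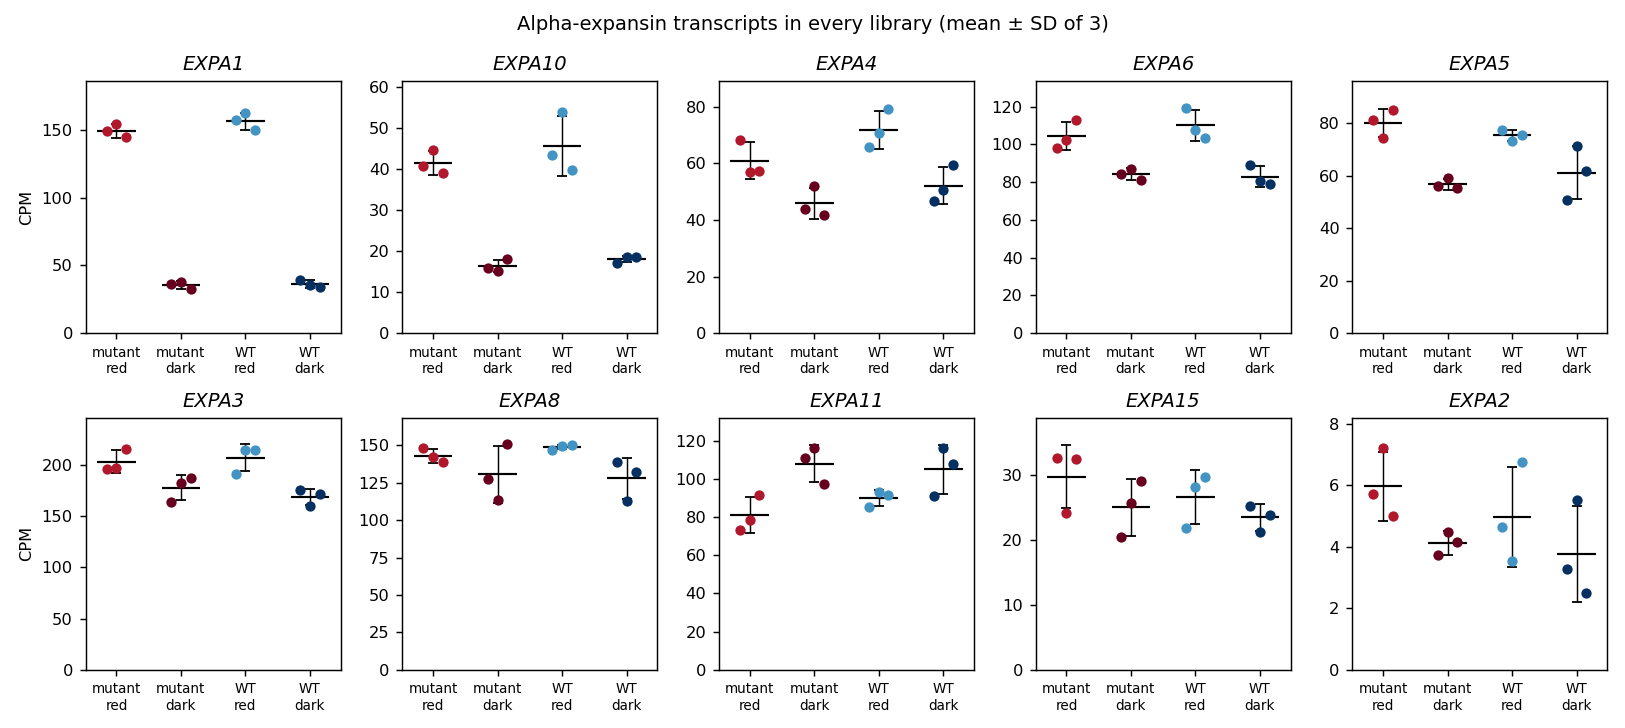
Level of each of the 10 genes in every library, in CPM on an axis that starts at 0, with 1 point per library, a line for the mean and a bar for the SD of 3. Groups run from mutant red and mutant dark to wild type (WT) red and WT dark. EXPA1 and EXPA10 have red light points well above all dark points in both genotypes, while EXPA11 has its mutant red light points below its mutant dark points.

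Smaller rises were found for EXPA4, EXPA6 and EXPA5. EXPA4 (AT2G39700, chr2:16543832-16545746, minus strand), which is known for a part in pollen tube growth, had 68.5, 57.1 and 57.4 CPM in mutant red light libraries, against 43.7, 51.9 and 41.9 CPM in mutant dark ones. Wild type seedlings had 65.9, 70.7 and 79.1 CPM in red light, against 46.6, 50.5 and 59.5 CPM in the dark. The groups stayed apart in both genotypes by a few CPM. EXPA4 rose 1.33-fold in the mutant (log2 0.41 ± 0.12, n = 3 per group, edgeR adjusted p = 0.0155) and 1.39-fold in the wild type (0.48 ± 0.11, edgeR adjusted p = 0.00440). The mutant call for EXPA4 was lost without mutant red light replicate 1 (log2 0.32, edgeR adjusted p = 0.123), mutant dark replicate 1 (0.39, 0.0509) or mutant dark replicate 3 (0.35, 0.0759). Without both libraries that stood apart, EXPA4 was called in the mutant (log2 0.34, edgeR adjusted p = 0.0390). The log2 change was nearly that without mutant dark replicate 3 alone, so this call does not show a firmer change.

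EXPA6 (AT2G28950, chr2:12431338-12433796, minus strand) had 98.0, 102 and 113 CPM in mutant red light libraries, against 84.4, 87.2 and 80.9 CPM in mutant dark ones. Wild type values of EXPA6 were 119, 108 and 103 CPM in red light, against 89.2, 80.5 and 78.9 CPM in the dark. No red light library was as low as any dark library of its genotype. EXPA6 rose 1.24-fold in the mutant (log2 0.31 ± 0.09, n = 3 per group, edgeR adjusted p = 0.0148) and 1.32-fold in the wild type (0.41 ± 0.09, edgeR adjusted p = 0.00165). In the mutant the call was lost without red light replicate 3 (log2 0.25, edgeR adjusted p = 0.0955) or dark replicate 3 (0.29, 0.0520). Without both libraries that stood apart, EXPA6 was called in the mutant (log2 0.28, edgeR adjusted p = 0.0260). The log2 change was nearly that without mutant dark replicate 3 alone, where the call was lost.

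EXPA5 (AT3G29030, chr3:11011262-11013451, minus strand), a gene that brassinosteroids are known to raise, had 81.3, 74.2 and 84.9 CPM in mutant red light libraries, against 56.0, 59.1 and 55.1 CPM in mutant dark ones. Wild type seedlings had 77.2, 73.1 and 75.5 CPM in red light, against 50.6, 71.2 and 61.7 CPM in the dark. The wild type dark libraries were spread widely, and the highest of them nearly reached the lowest red light library. EXPA5 rose 1.41-fold in the mutant (log2 0.50 ± 0.10, n = 3 per group, edgeR adjusted p = 0.00115), a call kept in all 20 alternatives. In the wild type the change was 1.24-fold (0.31 ± 0.10) at an edgeR adjusted p of 0.0457, and it was not called in 14 of 20 alternatives. Without wild type dark replicate 1, 1 of the libraries that stood apart, it came to log2 0.18 (edgeR adjusted p = 0.314), and with the replicate number as a block to 0.31 (edgeR adjusted p = 0.0632).

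EXPA3 (AT2G37640, chr2:15787523-15790139, minus strand) was the most abundant alpha-expansin in all 4 groups. It had 196, 197 and 216 CPM in mutant red light libraries, against 164, 182 and 187 CPM in mutant dark ones. Wild type libraries had 192, 215 and 215 CPM in red light, against 175, 160.0 and 172 CPM in the dark. Red light values were above dark values in both genotypes. In the mutant the difference of log2 0.19 ± 0.08 did not pass (n = 3 per group, edgeR adjusted p = 0.116). It passed without the 2 libraries that stood apart (log2 0.23, edgeR adjusted p = 0.0428). With 1 library left out, it ran from log2 0.14 to 0.23 and was called for 0 of 12 libraries. EXPA3 rose 1.23-fold in the wild type (0.29 ± 0.08, edgeR adjusted p = 0.0110), and by log2 0.33 without those libraries (edgeR adjusted p = 0.00263). The wild type call was lost without wild type red light replicate 2 (log2 0.27, edgeR adjusted p = 0.0538) or replicate 3 (0.27, 0.0573), and the test of the difference between the 2 responses gave log2 −0.10 (95% interval −0.34 to 0.13, edgeR adjusted p = 1).

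EXPA8 (AT2G40610, chr2:16948791-16950705, minus strand), another brassinosteroid-responsive gene, averaged 143 ± 4.61 CPM in mutant red light and 131 ± 19.2 CPM in mutant darkness (SD, n = 3 each). Wild type means were 149 ± 1.54 CPM in red light and 128 ± 13.8 CPM in the dark. The dark libraries were far more spread than the red light ones, from 113 to 151 CPM in the mutant. Neither difference passed (log2 0.13 ± 0.10 in the mutant, edgeR adjusted p = 0.437, and 0.22 ± 0.10 in the wild type, edgeR adjusted p = 0.150). The highest dark values were those of the 2 libraries that stood apart, and without them EXPA8 passed in the mutant (log2 0.26, edgeR adjusted p = 0.0263) and in the wild type (0.29, 0.0126).

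EXPA11 (AT1G20190) was the only one of the 10 with negative log2 changes in both genotypes. It had 73.3, 78.7 and 91.9 CPM in mutant red light libraries, against 111, 116 and 97.3 CPM in mutant dark ones. Col-0 seedlings had 85.3, 93.2 and 91.7 CPM in red light, against 91.1, 116 and 108 CPM in the dark. The groups were apart in the mutant and overlapped in the wild type, where dark replicate 1 was as low as the red light libraries. EXPA11 fell by 0.41 on the log2 scale in the mutant (SE 0.10, n = 3 per group, edgeR adjusted p = 0.00625), a call that was lost without mutant red light replicate 1 (log2 −0.34, edgeR adjusted p = 0.0630). In the wild type the difference was log2 −0.22 ± 0.10 (edgeR adjusted p = 0.186) and passed without dark replicate 1 (−0.31, edgeR adjusted p = 0.0445). Without both libraries that stood apart it was −0.48 in the mutant (edgeR adjusted p = 9.20e-05) and −0.31 in the wild type (0.0141). The test of the difference between the 2 responses gave log2 −0.19 (95% interval −0.50 to 0.11, edgeR adjusted p = 1).

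The other 2 genes were low and showed no called change. EXPA15 (AT2G03090, chr2:916806-918671, minus strand), which is studied in roots and in the shoot apex, had 32.5, 24.1 and 32.5 CPM in mutant red light, against 20.3, 25.6 and 29.0 CPM in mutant darkness. Its wild type levels were 21.8, 28.2 and 29.7 CPM in red light, against 25.2, 21.2 and 23.8 CPM in the dark. These groups overlapped (log2 0.23 ± 0.15 in the mutant, edgeR adjusted p = 0.372, and 0.17 ± 0.16 in the wild type, edgeR adjusted p = 0.537). EXPA2 (AT5G05290, chr5:1568694-1569915, plus strand), which is known from the endosperm of germinating seeds, had 25, 26 and 20 counts in mutant red light, against 11, 20 and 21 counts in mutant darkness. Wild type libraries held 19, 13 and 30 counts in red light, against 17, 20 and 8 counts in the dark. At 8 to 30 counts a change of the size seen for EXPA4 to EXPA6 was not detectable for EXPA2 (log2 0.51 ± 0.31 in the mutant, edgeR adjusted p = 0.319, and 0.42 ± 0.32 in the wild type, edgeR adjusted p = 0.454). EXPA2 overlaps AT5G05300 on the opposite strand by 61 bases, and that neighbour had 0 to 5 counts per library.

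Counted over the 10 genes, 5 rose and 1 fell in the mutant, where 16% of all genes tested were called in either direction, 10.7% as higher and 5.27% as lower. In the wild type 6 rose and none fell, where 15.2% of all genes were called, 10.6% as higher and 4.68% as lower. The genes that rose in both were EXPA1, EXPA4, EXPA5, EXPA6 and EXPA10. The median log2 change of the 10 was 0.36 in each genotype, against −0.014 in the mutant and −0.021 in the wild type over all genes tested. Groups did not overlap for 8 of the 10 in the mutant (7 above, 1 below) and 7 in the wild type (all above), against 30.2% and 30.0% of all genes. The 8 include EXPA2, whose lowest mutant red light library had 4.99 CPM and highest mutant dark library 4.49 CPM. Its unscaled counts overlapped. Without the 2 libraries that stood apart, 7 rose and 1 fell in the mutant, and 6 rose and 1 fell in the wild type. Over all genes, that fit called 2953 in the mutant and 2848 in the wild type, against 2958 and 2819 with all libraries. EXPA1 and EXPA10 were called in both genotypes under all 20 alternatives, with log2 changes for EXPA1 of 2.01 to 2.13 in the mutant and 2.07 to 2.18 in the wild type.

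**Figure D3:**
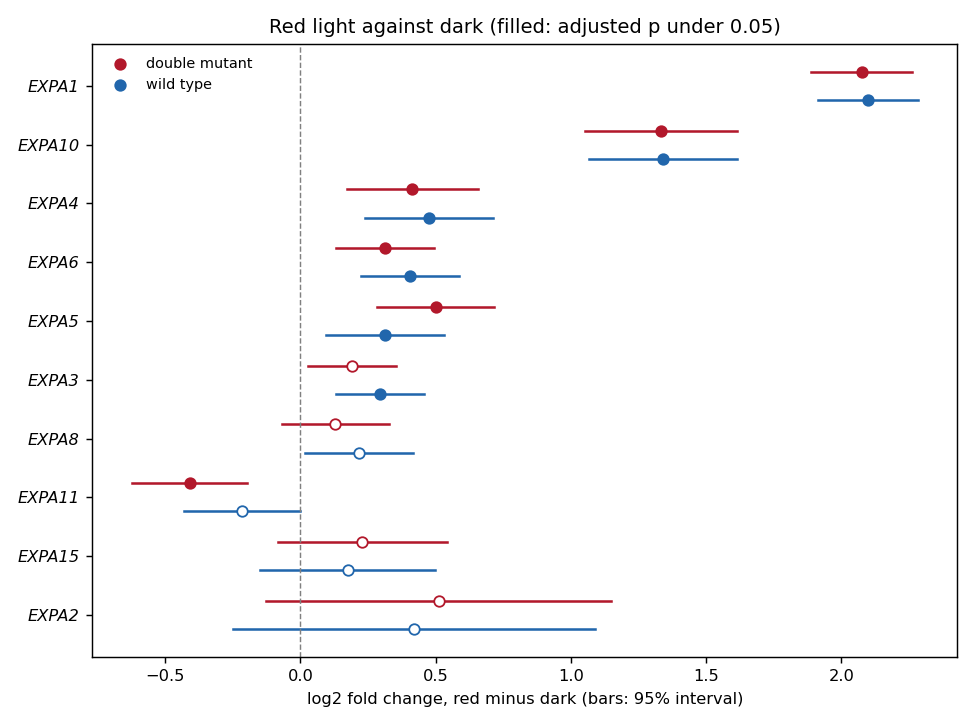
Log2 fold change of each gene, red light minus dark, on the x axis, with the double mutant above the wild type for each gene, bars for the 95% interval and filled points for an edgeR adjusted p under 0.05. EXPA1 lies near 2.1 and EXPA10 near 1.3 in both genotypes, the other called rises are at 0.50 or less, and EXPA11 lies left of 0.

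The order of levels among the 10 genes was the same in both genotypes and differed between light conditions. In red light it ran EXPA3, EXPA1, EXPA8, EXPA6, EXPA11, EXPA5, EXPA4, EXPA10, EXPA15 and EXPA2. In darkness it ran EXPA3, EXPA8, EXPA11, EXPA6, EXPA5, EXPA4, EXPA1, EXPA15, EXPA10 and EXPA2. EXPA1 was thus at rank 2 in red light and at rank 7 in the dark. Some neighbours had overlapping libraries and so no firm order: in red light EXPA1 and EXPA8 in both genotypes, EXPA11 and EXPA5 in the mutant, and EXPA5 and EXPA4 in the wild type. In the dark these were EXPA8 and EXPA11 in both genotypes, and EXPA5 and EXPA4 in the wild type.

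Summed over the 10 genes, alpha-expansin transcripts came to 883 to 923 CPM in mutant red light and 663 to 697 CPM in mutant darkness, and to 914 to 958 CPM in wild type red light and 671 to 691 CPM in wild type darkness. EXPA1 alone made up 16.6 ± 0.914% of these counts in mutant red light and 5.20 ± 0.436% in mutant darkness (SD, n = 3 each), and 16.7 ± 0.689% in wild type red light and 5.34 ± 0.453% in wild type darkness. EXPA11 made up 9.02 ± 0.882% in mutant red light and 15.8 ± 1.61% in mutant darkness, and 9.60 ± 0.236% in wild type red light and 15.5 ± 1.93% in wild type darkness. EXPA1 thus held a larger and EXPA11 a smaller part of these transcripts in red light, and a share also moves when the other genes move.

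**Figure D4:**
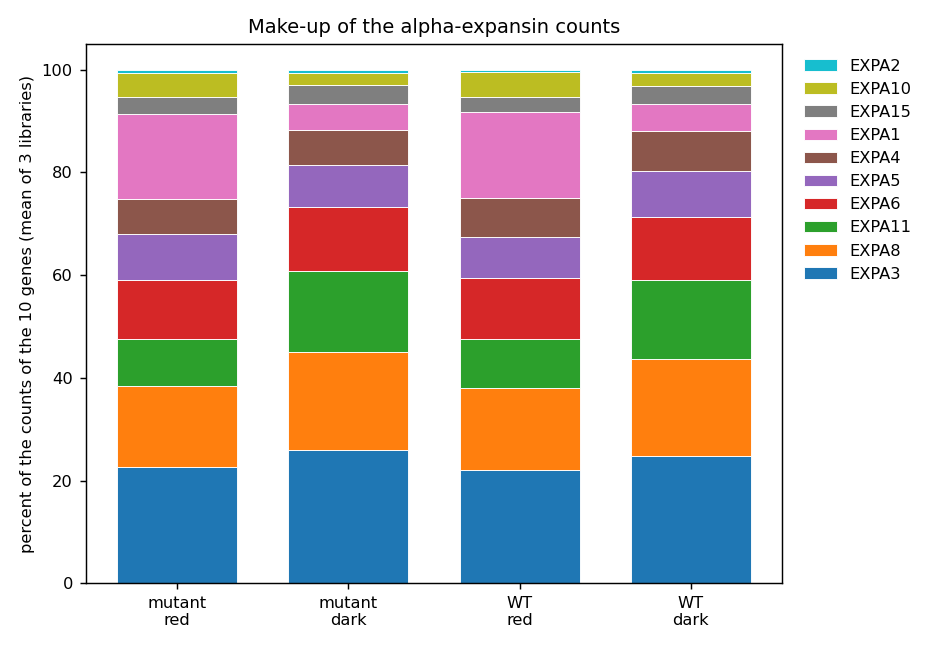
Share of each gene in the summed counts of the 10 genes, in percent, as the mean of 3 libraries per group, stacked from EXPA3 at the bottom to EXPA2 at the top. The EXPA1 segment is near 17% in both red light groups and near 5% in both dark groups, and the EXPA11 segment is narrower in red light.

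None of the 10 genes passed a test between the genotypes. In red light 0 genes were called as different in the mutant, against 0.0811% of all genes, and in the dark 0, against 0.0541%, with edgeR, DESeq2 and limma-voom. At an unadjusted edgeR p under 0.05 there was 1 gene in red light, EXPA4 (log2 −0.24 ± 0.11, n = 3 per group, adjusted p = 0.999), and there were 0 in the dark. EXPA4 ran from 57.1 to 68.5 CPM in mutant red light and from 65.9 to 79.1 CPM in wild type red light, and these libraries overlapped, as did those of all 10 genes in both comparisons, against 11.1% and 8.81% of all genes without overlap. The red light responses differed between genotypes for 0 of 10 genes (0% of all genes tested), with 0 at an unadjusted edgeR p under 0.05 and 0 by DESeq2 or limma-voom. The 95% interval of that difference lay between −0.50 and 0.51 on the log2 scale for the 9 genes other than EXPA2, whose interval was −0.84 to 1.02. For EXPA1 it was −0.29 to 0.24 and for EXPA10 −0.42 to 0.40, so that larger differences between the genotypes lay outside these intervals and smaller ones were not detectable with 3 libraries per group.

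**Figure D5:**
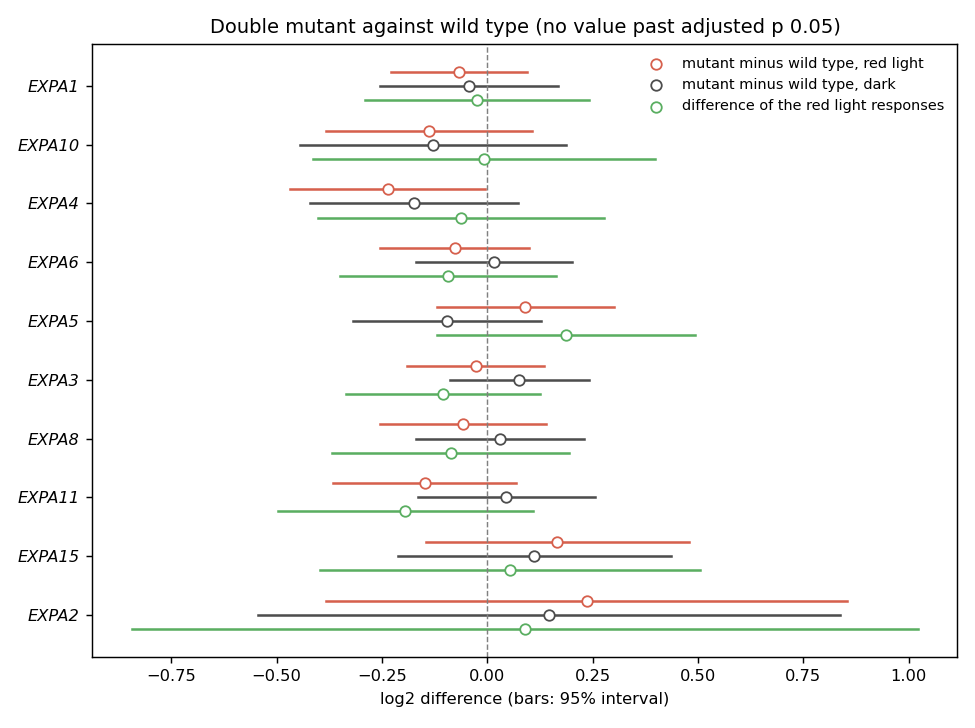
Log2 difference on the x axis for each gene, with 3 points per gene from top to bottom: mutant minus wild type in red light, the same in darkness, and the mutant response to red light minus that of the wild type. Bars are 95% intervals, no point passed an edgeR adjusted p of 0.05, and EXPA2 has the widest intervals.

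Among 16 other alpha-expansins, 15 were in the table and 8 had enough counts to be tested, and the 10 genes above held 83.7 to 89.2% of all alpha-expansin counts per library. None of the 8 was called in either genotype, with log2 changes of −0.33 to 0.69 in the mutant and −0.25 to 0.12 in the wild type. The share called over all genes was 16% in the mutant and 15.2% in the wild type. EXPA9 was the most abundant of them, at 54.8 ± 9.92 CPM in mutant red light and 59.0 ± 3.08 CPM in mutant darkness, and at 55.7 ± 4.31 CPM in wild type red light and 56.1 ± 4.52 CPM in wild type darkness (SD, n = 3 each). EXPA7 and EXPA18, which act in root hairs, stood between 4.33 and 10.5 CPM in all libraries. Of the 7 genes in the table that were not tested, 4 had at most 6 counts in a library, and the other 3 had none in any library, which with a limit of 3 counts allows up to 0.578 to 1.02 CPM (counting error only). EXPA16 had the highest mutant value, log2 0.69 ± 0.26 (n = 3 per group, edgeR adjusted p = 0.0754). It averaged 7.11 ± 0.431 CPM in mutant red light and 4.36 ± 0.343 CPM in mutant darkness (SD, n = 3 each). Its wild type means were 7.90 ± 0.783 CPM in red light and 7.52 ± 2.05 CPM in the dark.

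Of the 2 beta-expansins and 3 expansin-like genes tested, 1 was called in each genotype, against 16% of all genes in the mutant and 15.2% in the wild type. EXPB3 (AT4G28250), a beta-expansin, averaged 26.6 ± 4.46 CPM in mutant red light and 13.5 ± 0.666 CPM in mutant darkness, and 23.8 ± 2.09 CPM in wild type red light and 12.6 ± 0.715 CPM in wild type darkness (SD, n = 3 each). It rose by log2 0.97 ± 0.15 in the mutant (edgeR adjusted p = 3.21e-05) and by 0.92 ± 0.15 in the wild type (edgeR adjusted p = 1.00e-04).

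Other genes of wall growth were read beside the expansins. Of 17 tested genes for plasma membrane proton pumps and the PP2C.D phosphatases that switch them off, 1 rose and 1 fell in the mutant and 0 rose and 2 fell in the wild type. Among all genes tested, 16% were called in the mutant and 15.2% in the wild type. The phosphatase gene PP2C.D1 averaged 40.9 ± 2.21 CPM in mutant red light and 73.2 ± 13.9 CPM in mutant darkness, and 42.7 ± 3.36 CPM in wild type red light and 100.8 ± 15.8 CPM in wild type darkness (SD, n = 3 each). It fell by 0.82 on the log2 scale in the mutant (SE 0.13, edgeR adjusted p = 6.59e-05) and by 1.23 in the wild type (SE 0.13, edgeR adjusted p = 1.43e-07). PP2C.D7 fell by 0.75 in the wild type (SE 0.21, edgeR adjusted p = 0.0150) and had log2 −0.60 ± 0.21 in the mutant (edgeR adjusted p = 0.0509). The pump gene AHA11 rose by log2 0.28 ± 0.09 in the mutant (edgeR adjusted p = 0.0294) and had 0.23 ± 0.09 in the wild type (edgeR adjusted p = 0.0877).

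The xyloglucan endotransglucosylase/hydrolases (XTH), which cut and rejoin xyloglucan chains, split in both directions. Of 28 tested, 6 rose and 6 fell in the mutant, and 7 rose and 8 fell in the wild type. Over all genes tested, 10.7% rose and 5.27% fell in the mutant, and 10.6% rose and 4.68% fell in the wild type. A share of calls above that of all genes was thus not particular to the alpha-expansins. XTH32 rose by log2 1.31 ± 0.10 in the mutant and 1.32 ± 0.10 in the wild type, and XTH15 fell by 1.33 in the mutant and by 1.27 in the wild type (SE 0.11 each), while XTH33 fell by 0.83 in the mutant (SE 0.18) and by 1.06 in the wild type (SE 0.18), all with edgeR adjusted p of 0.00140 or less. Of 9 tested genes for primary wall cellulose synthesis, 2 rose in each genotype and 1 fell in the mutant, beside the same shares of all genes. The catalytic subunit gene CESA5 rose by log2 0.50 ± 0.09 in the mutant and 0.49 ± 0.09 in the wild type (edgeR adjusted p up to 0.000318), and CC1, for a companion of the cellulose synthase complex, rose by 0.62 ± 0.10 in the mutant and 0.47 ± 0.10 in the wild type (edgeR adjusted p up to 0.00121). CSI1, which links the complex to microtubules, fell by 0.23 in the mutant (SE 0.08, edgeR adjusted p = 0.0429) and had log2 −0.022 ± 0.08 in the wild type.

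Markers of cell types were read beside these changes. Since EXPA1 is known from guard cells, 6 guard cell markers were summed: they came to 57.2 to 72.3 CPM in mutant red light and 75.0 to 80.9 CPM in mutant darkness, and to 61.4 to 72.1 CPM in wild type red light and 68.3 to 85.2 CPM in wild type darkness. The mutant sums did not overlap, with lower values in red light, and the wild type sums did. Only HT1 was at 0 counts in any library. None of the 5 tested guard cell markers was called as higher in red light. Over all genes tested, 10.7% were called as higher in the mutant and 10.6% in the wild type. Their log2 changes ran from −0.86 to 0.044 in the mutant and from −0.48 to −0.0023 in the wild type. KAT2 fell by 0.86 in the mutant (SE 0.25, edgeR adjusted p = 0.0183) and MYB60 by 0.48 in the wild type (SE 0.16, edgeR adjusted p = 0.0483). Neither was called in the other genotype. No marker of root hairs, of the endodermis or of dividing cells was called in either response (7 tested in each list). Over all genes tested, 16% were called in the mutant and 15.2% in the wild type. Lists this short cannot tell 0 called genes from such shares. Root hair markers summed to 46.9 to 95.9 CPM and dividing cell markers to 62.7 to 74.6 CPM over all 12 libraries. Endodermis markers summed to 807 to 832 CPM in mutant red light and 726 to 839 CPM in mutant darkness. In the wild type the endodermis sums did not overlap, at 824 to 896 CPM in red light and 754 to 796 CPM in the dark. Of 11 seed storage and late seed genes, 5 were tested and none was called, beside the same shares of all genes. The sum of the 11 was 70.2 CPM in mutant dark replicate 1 and 5.62 to 33.9 CPM in the other 11 libraries. The part of these markers in the expansin changes was not tested.

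For the 3 genes with the largest called wild type change, the genes most like them in pattern were listed. Likeness is Pearson's r of log2 CPM over the 12 libraries, which does not compare levels or sizes of change. EXPA1 was most like COL2 (AT3G02380), a CONSTANS-like gene, with r = 0.998, AT4G02920 with r = 0.997 and SIGE (AT5G24120), a sigma factor of the plastid RNA polymerase, with r = 0.997. All 12 libraries share the split by light, and 6.10% of genes tested had an r with EXPA1 above 0.9. SIGE changed by log2 3.82 in the mutant and 3.69 in the wild type, against 2.07 and 2.10 for EXPA1. Within the 6 red light libraries alone, r was 0.52 for COL2, 0.77 for AT4G02920 and 0.40 for SIGE, and within the 6 dark libraries 0.60, 0.70 and 0.71. EXPA10 was most like MYBR1 (AT5G67300), a MYB factor, with r = 0.988, and like AT1G62975 and AT1G72500, with r = 0.988 each, and 5.40% of genes tested had an r with EXPA10 above 0.9. Within the 6 red light libraries r was 0.80 for MYBR1, 0.74 for AT1G62975 and 0.58 for AT1G72500, and within the 6 dark libraries 0.16, 0.69 and 0.87. EXPA4 was most like AT5G56980 with r = 0.935, SLD1 with r = 0.933 and PGM (AT1G78050) with r = 0.931, and 0.0974% of genes had an r with EXPA4 above 0.9. For EXPA4 r was 0.97 for AT5G56980, 0.91 for SLD1 and 0.70 for PGM within red light, and 0.75, 0.70 and 0.96 within darkness. PGM averaged 11.9 CPM over the 12 libraries. All these genes were picked by r over the same libraries, so r within a light condition is not independent of that choice.

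Tags near the 3′ end could be assigned to the wrong family member only where transcripts are alike. Over the last 500 exonic bases, the longest identical run between any of the 45 pairs of the 10 genes was 29 bases, for EXPA5 and EXPA10, with a median of 11. The longest with another alpha-expansin was 36 bases, for EXPA2 and EXPA14. The sources used here do not say how reads with several matches were handled.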

How the data were processed

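RNA was measured in 12 libraries of whole seedlings, 3 in each of 4 groups of genotype and light. Per the labels' protocols, total RNA went into 3′ tag libraries. The authors deposited whole-number counts per gene and library without normalization. Build TAIR10 and the tools FastQC, HISAT2, HTSeq and edgeR are named in the submitters' processing notes, with neither versions nor settings. The sources used here give no strand setting and do not say how reads with several matches were handled. The 5 summary lines at the end of the deposited count table were left out. Of the 33655 identifiers in the table, 32548 are locus identifiers, and all of these matched the TAIR10.1 annotation, which gave names and positions.

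Tests used edgeR 4.0.16 (R 4.3.3) with TMM factors, filterByExpr with a minimum count of 10 (18487 genes), a single quasi-likelihood fit over all 12 libraries and Benjamini-Hochberg adjusted p under 0.05 over all genes tested. A standard error is the size of the log2 change divided by the square root of F. Intervals (95%) use the fit's degrees of freedom, and the median SE of the wild type red minus dark log2 change was 0.174. In every group the replicates varied beyond sampling noise (chi-square over degrees of freedom at least 1.54). At this depth a count of 0 allows 3 counts, or 0.578 to 1.02 CPM, counting error only. The scripts were tested on simulated data. Alternatives used DESeq2 1.42.0, limma-voom (limma 3.58.1), RLE factors, other filters, a replicate block, only 2 groups, each library left out and both libraries that stood apart left out. Motif searches and figures used python 3.11.15 and matplotlib 3.10.9.

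The 10 genes and all lists were chosen with earlier results of these data known. Besides the 10 genes, the text names other expansins that were tested or called. It also names up to 3 called members per companion list by smallest p in wild type seedlings and, for 3 genes, the 3 with the highest r. AHA11, CSI1, KAT2 and MYB60 lie outside this rule and were chosen after their values were seen. The mutant's B''α and B''β genes are named as a check of the labels.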

Additional observations from a re-analysis of the deposited data

How the results depend on the processing

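The numbers of called genes kept within 1.5 times their value under every alternative run. Leaving out 1 library at a time gave 4 to 6 called genes in the mutant, equal to the full count for 8 of 12 libraries. In the wild type it gave 4 to 6, equal for 3 of 12. Over all genes these fits called 2364 to 3183 in the mutant and 2216 to 3059 in the wild type. The low counts of 4 came without mutant red light replicate 1 or mutant dark replicate 3, and without wild type red light replicate 2 or 3. The 3 counts of genotype differences stayed at 0. Where an arm was left with 2 libraries, the spread was pooled over all groups. Leaving out both libraries that stood apart changes this pooled spread as well as the log2 changes. For EXPA1 in the mutant the edgeR adjusted p went from 3.05e-14 to 3.21e-20, while the log2 change went from 2.07 to 2.01. Calls gained in that fit are thus not a sign of a larger change. DESeq2 and the fit of only 2 groups each called 5 in the wild type, both without EXPA5 (adjusted p = 0.112 with DESeq2 and 0.0699 with 2 groups).

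Same-numbered replicates did not deviate together (r −0.17 to 0.15, against −0.27 to 0.35 for other pairs), so the numbers were not taken as a pairing. The highest r, 0.35, was that between the 2 libraries that stood apart. With the replicate block 6 genes were called in the mutant and 5 in the wild type, EXPA5 being lost, and 0 in each genotype comparison.

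Sign changes affected uncalled values only. Without the 2 libraries that stood apart, mutant minus wild type in the dark was 0.094 for EXPA1 and −0.030 for EXPA8, and the difference between responses was 0.12 for EXPA10, which was 0.0028 with limma-voom. With 1 library left out, mutant minus wild type in the dark ran from −0.094 to 0.030 for EXPA1, −0.028 to 0.49 for EXPA2, −0.23 to 0.034 for EXPA5, −0.011 to 0.078 for EXPA6, −0.096 to 0.13 for EXPA8, −0.056 to 0.13 for EXPA11 and −0.011 to 0.22 for EXPA15. The difference between responses ran from −0.099 to 0.025 for EXPA1, −0.26 to 0.38 for EXPA2, −0.17 to 0.035 for EXPA4, −0.19 to 0.037 for EXPA8, −0.11 to 0.12 for EXPA10 and −0.075 to 0.18 for EXPA15. The causes were not tested. Over the whole table, mutant minus wild type in red light gave 15 called genes, 68 without the filter on low counts and 43 with 2 groups only. In the dark it gave 10, 69 without the filter and 24 without wild type dark replicate 2. The difference between responses gave 0, 28 without the filter, 1 with DESeq2 and 3 without wild type dark replicate 1. Without the 2 libraries that stood apart these counts were 46 in red light, 11 in the dark and 2 for the difference between responses. Depth limits EXPA2 most.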
